A study of Mus musculus with 14 samples.

Results

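The 10 genes Vegfa, Lox, Slc2a1, Pfkfb3, Car12, Bnip3, Hmox1, Jmjd6, Kdm3a and Zfp395 are induced by low oxygen in many cell types and encode no enzyme of the glycolytic chain itself. They were taken by name from the probe annotation of the array, which gave 16 probe sets for all 10 genes among the 10254 genes measured. The samples were thymic lymphomas of 14 mice, with 1 array per tumour, taken when the animals had trouble breathing. The groups were 5 Hif1a+/- tumours, 4 Hif1aKI/+ tumours, in which 1 of the Hif1a alleles is a knock-in (KI) whose content the labels do not give, and 5 Hif1a+/+ tumours. All 14 mice, those with unaltered Hif1a included, were homozygous for the p53 R270H mutation on a mixed C57BL/6-129/SvEvTac background, so every comparison was made within p53-mutant lymphoma. No age or sex is given in the labels, and each sample was whole tumour tissue, so other cells of the tumour contributed RNA.

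HIF-1 is a transcription factor made of an oxygen-regulated alpha subunit, encoded by Hif1a, and a constitutive partner. In normal oxygen, prolyl hydroxylases mark the alpha subunit for destruction. In hypoxia it accumulates and binds short sequences with the core ACGTG or GCGTG, switching on genes for blood vessel growth, glucose uptake, acid export, mitochondrial turnover and chromatin modification. HIF-2alpha, encoded by Epas1, binds the same core and shares part of these targets.

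The promoters of the genes with most copies of that core are shown because the binding core is what links these genes to HIF. Both motifs, ACGTG and GCGTG, were searched on both strands of windows from 250 bases before to 50 bases after RefSeq transcript starts (GRCm38.p6), and capitals mark every match. An ACGTG inside CACGTG matches on both strands and counts as 2 matches. Bnip3 had 5 matches at chr7:138909457-138909756 on the minus strand, and Pfkfb3 had 4 at chr2:11502041-11502340 on the minus strand, the more downstream of its 2 starts. Of 3 genes with 2 matches in a window, Slc2a1 at chr4:119108495-119108794 on the plus strand is shown. It was chosen in place of Jmjd6 after its level was seen to follow that of Bnip3. Its display is therefore no evidence on that relation.
Bnip3: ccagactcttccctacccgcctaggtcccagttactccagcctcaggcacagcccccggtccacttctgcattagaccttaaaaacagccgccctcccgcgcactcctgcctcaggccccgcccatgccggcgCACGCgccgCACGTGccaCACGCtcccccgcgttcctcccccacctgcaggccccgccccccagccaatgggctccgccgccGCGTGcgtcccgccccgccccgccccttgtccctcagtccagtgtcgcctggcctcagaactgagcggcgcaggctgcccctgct
Pfkfb3: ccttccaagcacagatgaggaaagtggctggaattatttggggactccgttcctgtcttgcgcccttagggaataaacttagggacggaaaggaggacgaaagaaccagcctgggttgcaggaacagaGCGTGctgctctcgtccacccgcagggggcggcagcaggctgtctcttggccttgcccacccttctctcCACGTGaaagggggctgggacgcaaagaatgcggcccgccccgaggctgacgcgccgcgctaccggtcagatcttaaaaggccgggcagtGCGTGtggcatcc
Slc2a1: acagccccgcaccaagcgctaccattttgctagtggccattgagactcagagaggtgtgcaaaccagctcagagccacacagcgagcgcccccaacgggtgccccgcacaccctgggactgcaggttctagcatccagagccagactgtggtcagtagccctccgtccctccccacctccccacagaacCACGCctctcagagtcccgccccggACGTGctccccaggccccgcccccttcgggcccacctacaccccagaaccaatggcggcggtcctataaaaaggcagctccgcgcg
Of the 7 genes with a window that was searched, 6 held a match to either motif in at least 1 window, against 46.7% of the 27025 genes with windows. Some genes have several windows, and by window 7 of the 11 searched held a match, against 43.8% of all windows. Vegfa had no match in the window of its upstream start and 2 in that of its downstream start, and Car12 had none. That downstream window, at chr17:46025114-46025413, lies inside the Vegfa gene, which spans chr17:46016993-46032377. Vegfa counts among the 6 genes through that window only. Windows with at least 4 matches made up 3.86% of the 32851 windows. A match is a stretch of letters and not a measured binding site.

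The deposited values are log2 levels, on which a difference of 1 is a doubling. Over all values there was a low mode of probe sets without signal above background, bounded at 4.41. All 10 genes had a mean above that boundary at the probe set of highest mean, which stands for the gene below. Array medians ran from 7.91 to 8.03 and correlations between arrays from 0.942 to 0.976. Of the 15 T cell markers on the list used to check the tissue, 13 were measured, all with means above the boundary, and their mean level lay between 11.56 and 12.32 in every tumour. The brightest Hif1a probe set averaged 12.55 ± 0.22 in the 5 Hif1a+/- tumours, 12.02 ± 0.22 in the 4 Hif1aKI/+ tumours and 12.68 ± 0.26 in the 5 Hif1a+/+ tumours (SD), with log2 differences of -0.13 and -0.66 against Hif1a+/+ (limma adjusted p = 0.857 and 0.984). At that brightest probe set the unadjusted limma p for Hif1aKI/+ against Hif1a+/+ was 0.00121. The highest Hif1aKI/+ tumour, at 12.25, lay below the lowest Hif1a+/+ tumour, at 12.44, a separation that 0.878% of all genes showed downward. A second Hif1a probe set averaged 10.43 in Hif1a+/-, 9.62 in Hif1aKI/+ and 10.38 in Hif1a+/+ tumours. Another ran from 9.02 to 10.56 in Hif1a+/-, from 6.51 to 9.005 in Hif1aKI/+ and from 9.38 to 10.64 in Hif1a+/+ tumours, so that the Hif1aKI/+ tumours lay below both other groups. In the fit of all 18264 probe sets the Hif1aKI/+ difference from Hif1a+/+ was -0.76 and -1.84 at these probe sets (limma adjusted p = 1.0 for each). Their unadjusted limma p was 0.0509 and 0.00272. The fourth Hif1a probe set was below the boundary in every tumour. Whether the probes of these Hif1a probe sets lie in the altered part of the gene is not given, so they do not check the genotype labels. Epas1 lay below the boundary in all 14 tumours. So did Arnt, which encodes the constitutive partner of HIF-1. A level below the boundary does not by itself show that a gene is off.

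None of the 10 genes passed in any comparison of Hif1a genotypes (limma adjusted over 10254 genes, threshold 0.05). For Hif1a+/- against Hif1a+/+, 0 of 10 passed where 0.0195% of all genes did, and 2 of 10 had an unadjusted limma p under 0.05 against 7.94% of all genes. Of these, Jmjd6 was higher, as were 4.3% of all genes at that level, and Lox was lower, as were 3.64%. For Hif1aKI/+ against Hif1a+/+, 0 of 10 passed against 0% of all genes, with 2 of 10 at an unadjusted p under 0.05 against 4.35%. Both, Vegfa and Zfp395, were higher, as were 2.72% of all genes, while 1.63% were lower. For Hif1a+/- against Hif1aKI/+, 0 of 10 passed against 0% of all genes, and 1 of 10 had an unadjusted p under 0.05 against 3.06%. It was Zfp395, which was lower, as were 1.65% of all genes, while 1.41% were higher. The moderated F test over the 3 genotypes called 0 of 10, against 0% of all genes, and 1 of 10 at an unadjusted p under 0.05 against 5.43%. No gene of the 10 separated the tumours of any pair of genotypes without overlap, which 0.731% of all genes did upward and 0.741% downward for Hif1a+/- against Hif1a+/+. The shares of all genes that did so were 0.878% upward and 0.878% downward for Hif1aKI/+ against Hif1a+/+, and 0.234% upward and 0.439% downward for Hif1a+/- against Hif1aKI/+. The first pair of comparisons share their Hif1a+/+ tumours, and the third reuses both altered groups, so the 3 are not independent.

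By sign alone, 3 of 10 were higher and 7 lower in Hif1a+/- than in Hif1a+/+ tumours, where 46.2% of all genes were higher and 53.8% lower, with a median log2 difference of -0.07 against -0.0038 over all genes. In Hif1aKI/+ against Hif1a+/+ tumours 7 of 10 were higher, where 47.7% of all genes were higher and 52.3% lower, and the median was 0.26 against -0.0024. In Hif1a+/- against Hif1aKI/+ tumours 2 of 10 were higher, where 46.9% of all genes were higher and 53.1% lower, with a median of -0.28 against -0.0012. The share of a gene's variance that lay between genotype means ran from 2.71% for Bnip3 to 44.2% for Jmjd6, against a median of 13.7% over all genes. Of the 10 genes 8 lay above that median, the exceptions being Bnip3 and Slc2a1 at 5.22%.

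**Figure D1:**
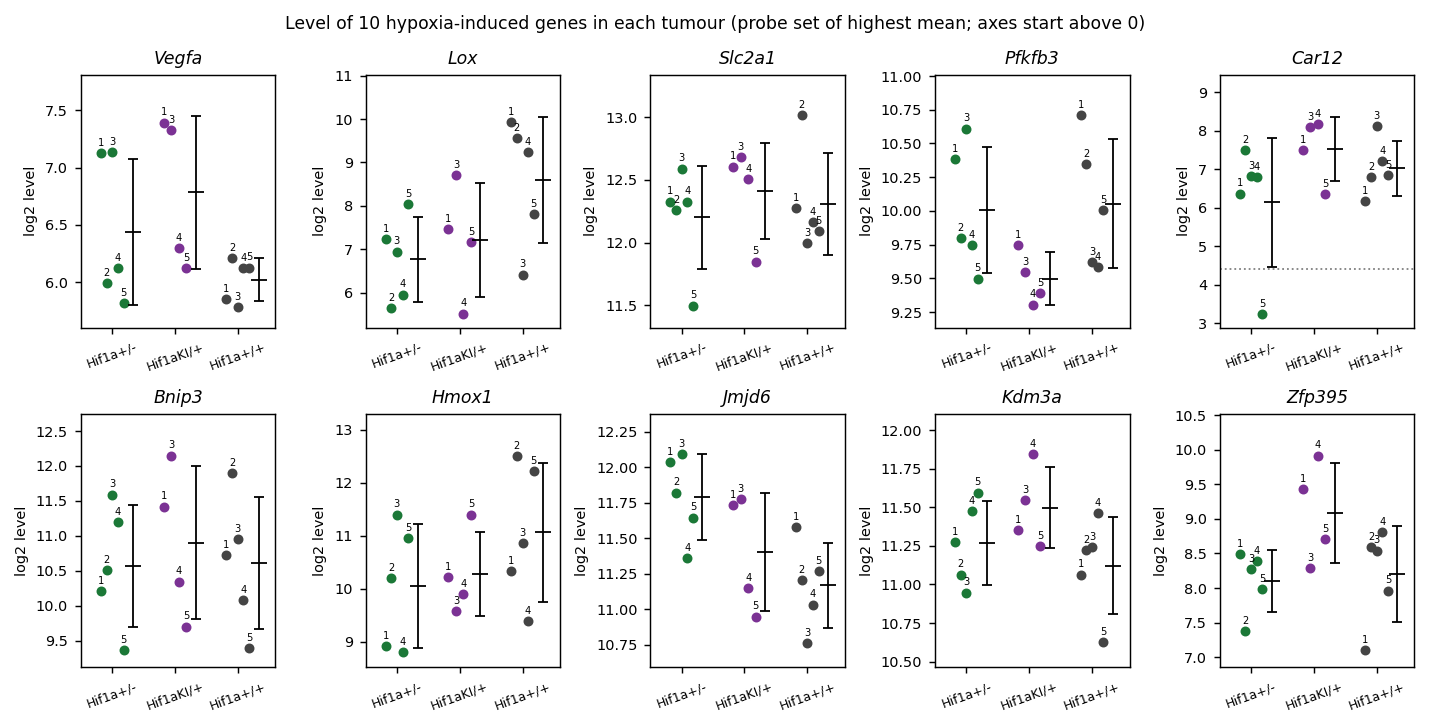
Log2 level of each of the 10 genes (vertical axes, which start above 0) in every tumour, by Hif1a genotype; numbers are the tumour numbers of the labels, black marks show mean ± SD (n = 5, 4 and 5), and the dotted line in the Car12 panel is the background boundary of 4.41. The groups overlap in every panel, Vegfa falls in 2 ranges, and Car12 lies at 3.24 in Hif1a+/- tumour 5.

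Vegfa, which encodes the main growth factor for blood vessels, fell in 2 separate ranges that cut across the altered genotypes. It was 7.12, 5.99, 7.13, 6.12 and 5.82 in Hif1a+/- tumours 1 to 5, 7.39, 7.33, 6.30 and 6.12 in Hif1aKI/+ tumours 1, 3, 4 and 5, and 5.86, 6.21, 5.79, 6.13 and 6.13 in Hif1a+/+ tumours 1 to 5. Tumours 1 and 3 of both altered genotypes, 4 in all, stood between 7.12 and 7.39, and the other 10 between 5.79 and 6.30, with an empty gap of 0.82. No Hif1a+/+ tumour lay in the upper range. The difference was 0.76 (SE 0.35, 95% interval 0.01 to 1.52) for Hif1aKI/+ over Hif1a+/+ with a limma adjusted p of 0.984, and 0.42 (SE 0.33, 95% interval -0.30 to 1.13) for Hif1a+/- over Hif1a+/+ with a limma adjusted p of 0.764. Both intervals are unadjusted, as are all those given here. A second Vegfa probe set lay between 2.12 and 2.27 in all 14 tumours, below the boundary, and carries no information on these ranges.

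The related ligands and the receptors differed widely in whether they were detected. Among the receptors that bind Vegfa, Nrp1 had a mean of 11.74 and Flt1 of 5.02, both above the boundary. Of 8 measured VEGF ligands and receptors, 5 had a mean below the boundary, among them Kdr, the main signalling receptor for Vegfa, and Kdr, Pgf, Vegfc and Nrp2 were below it in every tumour. None of the 8 passed in any comparison (0 at an unadjusted limma p under 0.05 in each). Of 13 endothelial markers 8 had a mean below the boundary, and Cdh5, Kdr, Tie1, Esam and Robo4 were below it in every tumour. The mean of that list ran from 3.29 to 4.73 in Hif1a+/-, from 3.63 to 4.42 in Hif1aKI/+ and from 3.82 to 4.80 in Hif1a+/+ tumours. Over the 14 tumours Vegfa had r = -0.194 with that mean (rho = -0.125, permutation p = 0.507, adjusted p = 0.846). The part of endothelial cells in the Vegfa levels was not tested.

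Lox encodes lysyl oxidase, which cross-links collagen and elastin in the extracellular matrix, and it had the largest SD over 14 tumours of the 10 genes, while Car12 had the widest range. Its level was 7.24, 5.65, 6.95, 5.96 and 8.05 in Hif1a+/- tumours 1 to 5, 7.46, 8.72, 5.52 and 7.16 in Hif1aKI/+ tumours 1, 3, 4 and 5, and 9.93, 9.57, 6.42, 9.24 and 7.82 in Hif1a+/+ tumours 1 to 5. Hif1a+/+ tumours 1, 2 and 4 were the highest of all 14, but Hif1a+/+ tumour 3 lay among the low tumours of the other genotypes. That SD was 1.43, exceeded by 7.46% of genes above the boundary.

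Lox was 3.55-fold lower in Hif1a+/- than in Hif1a+/+ tumours without passing (log2 difference -1.83, SE 0.77, 95% interval -3.51 to -0.14, limma adjusted p = 0.600). In Hif1aKI/+ against Hif1a+/+ tumours the log2 difference was -1.38 (SE 0.82, 95% interval -3.17 to 0.41, limma adjusted p = 0.984). A second Lox probe set followed the first (r = 0.931 over the 14 tumours, a description) but was above the boundary in 3 tumours only, Hif1a+/+ tumours 1, 2 and 4 at 6.61, 6.37 and 6.01. Of 2 measured lysyl oxidase-like genes, Loxl1 averaged 5.51 in Hif1a+/- and 7.29 in Hif1a+/+ tumours, a difference of -1.79 (SE 0.53, limma adjusted p = 0.474), and the mean of Loxl3 was below the boundary.

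The matrix-producing cells of the tumour were followed through markers. The mean of 14 measured fibroblast and matrix markers ran from 8.20 to 9.18 in Hif1a+/-, from 8.47 to 9.72 in Hif1aKI/+ and from 8.76 to 10.42 in Hif1a+/+ tumours, with Lum below the boundary in every tumour. In Hif1a+/- against Hif1a+/+ tumours 13 of the 14 were lower, with a median of -1.01 against -0.0038 over all genes, and 0 passed (6 at an unadjusted limma p under 0.05). Markers of other cell types also differed in sign in that comparison: 6 of 6 adipocyte markers were lower (median -1.44) and 8 of 10 thymic epithelial markers higher (median 1.02), with 0 passing in either list (2 and 5 at an unadjusted limma p under 0.05). Of all genes, 53.8% were lower and 46.2% higher in that comparison, with 7.94% at an unadjusted limma p under 0.05. Genes of a list can vary together, so these counts are not independent results. Over the 14 tumours the level of Lox correlated with the fibroblast and matrix mean (r = 0.727, rho = 0.723, permutation p = 0.00355). That did not pass among the 150 relations of genes with list means (adjusted p = 0.239). Within genotypes r was 0.577 (permutation p = 0.0656), and without the 2 tumours of most extreme Lox it was 0.542. In whole tumour RNA, fewer matrix-producing cells and less RNA per such cell cannot be told apart, and the part of these cells in the Lox levels was not tested. By likeness over the 14 tumours, Lox was closest to Furin (r = 0.859), Col1a1 (r = 0.788) and Fn1 (r = 0.780), of 5825 genes searched, as a description.

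Slc2a1 encodes GLUT1, the glucose transporter of most proliferating cells, and its genotype means lay between 12.20 and 12.41. It was 12.33, 12.26, 12.59, 12.33 and 11.50 in Hif1a+/- tumours 1 to 5, 12.61, 12.68, 12.51 and 11.85 in Hif1aKI/+ tumours 1, 3, 4 and 5, and 12.27, 13.01, 12.00, 12.17 and 12.09 in Hif1a+/+ tumours 1 to 5. The lowest value was in Hif1a+/- tumour 5 and the highest in Hif1a+/+ tumour 2. The difference was -0.11 (SE 0.25, 95% interval -0.65 to 0.43, limma adjusted p = 0.975) for Hif1a+/- against Hif1a+/+ and 0.10 (SE 0.26, 95% interval -0.47 to 0.68, limma adjusted p = 1.0) for Hif1aKI/+ against Hif1a+/+. The 3 Slc2a1 probe sets followed each other across tumours, with r between 0.933 and 0.986 as a description.

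Bnip3 encodes a mitochondrial outer membrane protein that marks mitochondria for autophagy and can promote cell death. Its level was 10.20, 10.51, 11.59, 11.19 and 9.36 in Hif1a+/- tumours 1 to 5, 11.42, 12.15, 10.34 and 9.70 in Hif1aKI/+ tumours 1, 3, 4 and 5, and 10.72, 11.90, 10.95, 10.07 and 9.39 in Hif1a+/+ tumours 1 to 5. Tumour 5 of each genotype had the lowest level of its group, and each genotype spanned more than 2 on the log2 scale. Against Hif1a+/+ the difference was -0.04 (SE 0.59, 95% interval -1.32 to 1.25, limma adjusted p = 0.991) in Hif1a+/- and 0.30 (SE 0.62, 95% interval -1.07 to 1.66, limma adjusted p = 1.0) in Hif1aKI/+ tumours. Those intervals leave room for a change of about 1 in either direction.

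Slc2a1 and Bnip3 varied together from tumour to tumour, and were the 1 pair of the 45 to pass by Pearson's r over the 14 tumours. By rho 2 pairs passed and within genotypes 3 did, this pair and Vegfa with Slc2a1 among them in both. Their levels correlated with r = 0.817 and rho = 0.837 over 14 tumours (permutation p = 0.00028, adjusted p = 0.0126). The relation held within genotypes, with r = 0.816 for deviations from the genotype means (permutation p = 0.00081, adjusted p = 0.0320), and r was 0.739 without Hif1a+/- tumour 5 and Hif1a+/+ tumour 2, the tumours farthest from the Slc2a1 median. When 1 tumour at a time was left out, r stayed between 0.778 and 0.863. The pair passed in 12 of 14 such fits, and did not without Hif1a+/- tumour 5 (r = 0.778) or without Hif1a+/+ tumour 2 (r = 0.782).

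**Figure D2:**
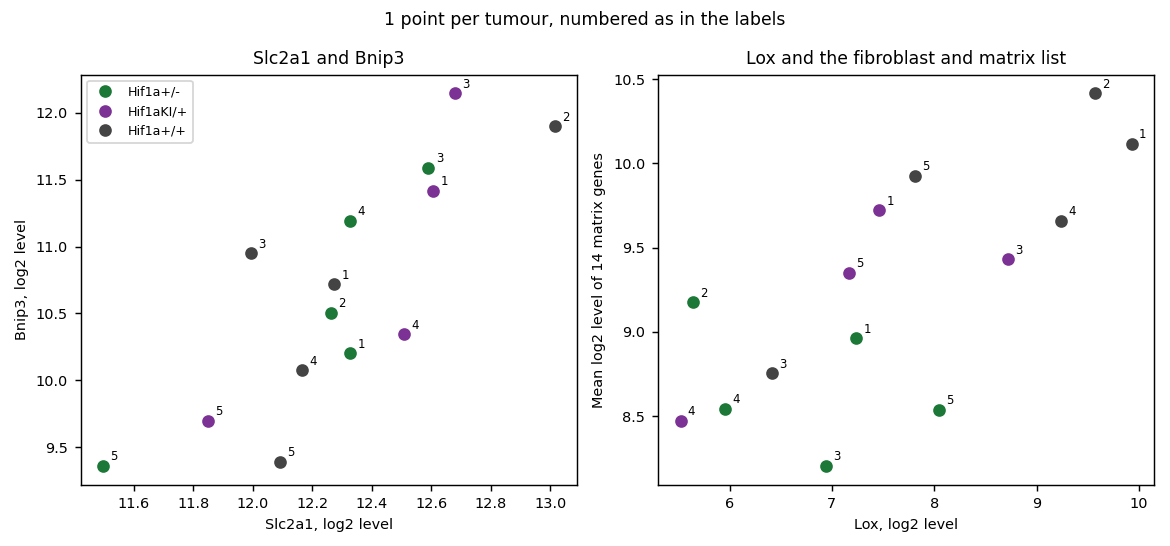
Left, log2 level of Bnip3 (vertical) against Slc2a1 (horizontal); right, mean log2 level of 14 fibroblast and matrix genes (vertical) against Lox (horizontal); 1 point per tumour, coloured by Hif1a genotype and numbered as in the labels. Slc2a1 and Bnip3 vary together with r = 0.817 across genotypes, and Hif1a+/+ tumours 1, 2 and 4 are highest for Lox.

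Other genes of the hypoxia response were set beside this pair. The mean of 17 glycolysis genes correlated with Bnip3 (r = 0.736, rho = 0.675, permutation p = 0.00248) and with Slc2a1 (r = 0.646, rho = 0.587, permutation p = 0.0132), and the mean of 25 other hypoxia-induced genes with Bnip3 (r = 0.712, rho = 0.622, permutation p = 0.00477). None of these passed among the 150 relations (adjusted p = 0.239, 0.330 and 0.239). Without the 2 tumours farthest from the median of the gene, r was 0.650, 0.558 and 0.494, and within genotypes it was 0.760, 0.625 and 0.703. Slc2a1 with the mean of the 25 had r = 0.610 (rho = 0.618, permutation p = 0.0201, adjusted p = 0.364), and 0.615 without its 2 farthest tumours. With the mean of 16 macrophage markers Slc2a1 had r = 0.530 (permutation p = 0.0535, adjusted p = 0.456). It was 0.670 within genotypes and -0.168 without its 2 farthest tumours. Bnip3 had r = 0.430 with that mean (permutation p = 0.126, adjusted p = 0.570). It was 0.611 within genotypes and 0.095 without its 2 farthest tumours. The part of macrophages in the levels of the pair was not tested. Outside the pair, Car12 with the glycolysis mean had r = 0.618 (rho = 0.459, permutation p = 0.0218, adjusted p = 0.364), and 0.34 without its 2 farthest tumours. In the search for likeness, the gene closest to Bnip3 was P4ha1 (r = 0.859), which encodes a collagen prolyl hydroxylase and is itself hypoxia-induced, followed by Slc2a1 and Pitrm1 (r = 0.808). Slc2a1 was closest to Tmtc4 (r = 0.845), Ipo7 (r = 0.832) and Sypl (r = 0.825).

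No gene of the glycolysis list or of the list of other hypoxia-induced genes passed between genotypes. Of 25 other hypoxia-induced genes outside glycolysis, 11 were higher and 14 lower in Hif1a+/- than in Hif1a+/+ tumours (median -0.13), 13 higher and 12 lower in Hif1aKI/+ than in Hif1a+/+ tumours (median 0.10), and 9 higher and 16 lower in Hif1a+/- than in Hif1aKI/+ tumours (median -0.10). At an unadjusted limma p under 0.05 there were 0, 0 and 1, the last being the histone demethylase gene Kdm4b at -0.49. Mxi1, a Myc antagonist, was at 0.45 and Ndrg1 at -0.70 in Hif1a+/- against Hif1a+/+. Of 17 glycolysis genes, 14 were lower in Hif1a+/- than in Hif1a+/+ tumours (median -0.16) and 16 lower in Hif1a+/- than in Hif1aKI/+ tumours (median -0.30), with 0 passing (1 and 2 at an unadjusted limma p under 0.05). In Hif1aKI/+ against Hif1a+/+ tumours 7 of the 17 were higher and 10 lower (median -0.03), with 0 passing (1 at an unadjusted limma p under 0.05). Of all genes, 53.8% were lower in Hif1a+/- against Hif1a+/+, 52.3% in Hif1aKI/+ against Hif1a+/+ and 53.1% in Hif1a+/- against Hif1aKI/+. The shares at an unadjusted limma p under 0.05 were 7.94%, 4.35% and 3.06%. Genes of a list can vary together, so these counts are not independent results.

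Pfkfb3 makes fructose 2,6-bisphosphate, the activator of phosphofructokinase, and so sets the pace of glycolysis without being a step of it. It ranged from 9.50 to 10.61 in Hif1a+/-, from 9.30 to 9.75 in Hif1aKI/+ and from 9.59 to 10.71 in Hif1a+/+ tumours. The narrow Hif1aKI/+ group sat at the low end of the others and overlapped both. The difference was -0.55 (SE 0.27, 95% interval -1.15 to 0.04, limma adjusted p = 0.984) for Hif1aKI/+ against Hif1a+/+, and 0.51 (SE 0.27, 95% interval -0.08 to 1.10, limma adjusted p = 1.0) for Hif1a+/- against Hif1aKI/+. For Hif1a+/- against Hif1a+/+ it was -0.05 (SE 0.26, limma adjusted p = 0.990). The related isoform gene measured, Pfkfb2, was below the boundary in every tumour.

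Car12 encodes carbonic anhydrase 12, an enzyme on the cell surface that hydrates carbon dioxide and helps cells handle acid. Its level was 6.37, 7.49, 6.82, 6.80 and 3.24 in Hif1a+/- tumours 1 to 5, 7.49, 8.09, 8.16 and 6.36 in Hif1aKI/+ tumours 1, 3, 4 and 5, and 6.17, 6.79, 8.11, 7.21 and 6.85 in Hif1a+/+ tumours 1 to 5. It was below the boundary in Hif1a+/- tumour 5 and above it in the other 13. That tumour sets much of the Hif1a+/- mean: the difference from Hif1a+/+ was -0.89 (SE 0.72, 95% interval -2.46 to 0.69, limma adjusted p = 0.774) with it and -0.16 without it. Against Hif1aKI/+ the difference was -1.38 (SE 0.77, limma adjusted p = 1.0) with it and -0.66 without it.

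Hif1a+/- tumour 5 also had the lowest mean of 14 cell cycle genes, at 11.39, against 12.16 to 12.41 in the other Hif1a+/- tumours, 12.16 to 12.43 in Hif1aKI/+ and 12.22 to 12.51 in Hif1a+/+ tumours. The genes most like Car12 were Anln (r = 0.908), Pole2 (r = 0.896) and Shmt1 (r = 0.888), and without Hif1a+/- tumour 5 and Hif1aKI/+ tumour 4 these fell to 0.601, 0.595 and 0.544. On a list of other carbonic anhydrases 7 were measured, of which 6 had a mean below the boundary and 0 passed in any comparison (0 at an unadjusted limma p under 0.05). Car3 and Car9 stand on the adipocyte and hypoxia lists instead. The difference of Car3 was -3.90 (SE 1.75, limma adjusted p = 0.618) in Hif1a+/- against Hif1a+/+ tumours, and the mean of Car9 was below the boundary.

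Hmox1 encodes heme oxygenase 1, which breaks down heme and also answers to oxidative stress and to heme itself, and macrophages that clear red cells are rich in it. Its level was 8.91, 10.20, 11.40, 8.80 and 10.95 in Hif1a+/- tumours 1 to 5, 10.22, 9.58, 9.89 and 11.40 in Hif1aKI/+ tumours 1, 3, 4 and 5, and 10.34, 12.51, 10.87, 9.38 and 12.23 in Hif1a+/+ tumours 1 to 5. Hif1a+/+ tumours 2 and 5 stood 0.83 above all others, while Hif1a+/+ tumour 4 was among the lowest. The difference from Hif1a+/+ was -1.01 (SE 0.70, 95% interval -2.53 to 0.51, limma adjusted p = 0.737) in Hif1a+/- and -0.79 (SE 0.74, 95% interval -2.41 to 0.82, limma adjusted p = 0.984) in Hif1aKI/+ tumours.

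The mean of 16 macrophage markers was highest in the same pair of tumours, at 10.17 and 9.43 in Hif1a+/+ tumours 2 and 5. It ran from 7.65 to 8.50 in Hif1a+/-, from 7.80 to 8.90 in Hif1aKI/+ and from 8.59 to 10.17 in Hif1a+/+ tumours, with Itgam below the boundary in every tumour. Of the 16 markers 14 were lower in Hif1a+/- than in Hif1a+/+ tumours (median -0.76), as were 53.8% of all genes. In that comparison 1 marker passed, the scavenger receptor gene Stab1, at -1.28 (SE 0.17, limma adjusted p = 0.0499), where 0.0195% of all genes did. No gene of the whole table passed in this comparison with quantile normalization, so that call rests on the processing. Hmox1 correlated with the macrophage mean at r = 0.556 (rho = 0.363, permutation p = 0.0374, adjusted p = 0.456), and r was -0.05 without Hif1a+/+ tumours 2 and 5, so the relation rested on those tumours. Hmox1 followed the mean of 6 adipocyte markers with r = 0.661 (rho = 0.666, permutation p = 0.0100, adjusted p = 0.30), with r = 0.572 within genotypes and 0.432 without the same 2 tumours. That mean ran from 5.31 to 6.66 in Hif1a+/-, from 5.67 to 6.75 in Hif1aKI/+ and from 5.55 to 9.54 in Hif1a+/+ tumours, with 8.27 and 8.60 in Hif1a+/+ tumours 2 and 5, and Adipoq and Retn had means below the boundary. With the mean of 13 endothelial markers Hmox1 had r = 0.557 (rho = 0.574, permutation p = 0.039, adjusted p = 0.456), and 0.423 without Hif1a+/+ tumours 2 and 5. With the mean of 8 VEGF ligands and receptors it had r = 0.575 (rho = 0.710, permutation p = 0.0314, adjusted p = 0.456), and 0.415 without those tumours. The part of macrophages, adipocytes and endothelial cells in the Hmox1 levels was not tested. Of 11 genes of oxidative stress and iron handling, 8 were lower in Hif1a+/- than in Hif1a+/+ tumours (median -0.09) and 0 passed (1 at an unadjusted limma p under 0.05). The 3 measured erythroid markers, Alas2, Slc4a1 and Klf1, were below the boundary in every tumour.

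Jmjd6 encodes an oxygen-dependent lysyl hydroxylase of the JmjC family that acts on splicing factors, and it had the smallest unadjusted p of the 10 genes in Hif1a+/- against Hif1a+/+. Its level was 12.04, 11.82, 12.09, 11.36 and 11.65 in Hif1a+/- tumours 1 to 5, 11.74, 11.78, 11.15 and 10.95 in Hif1aKI/+ tumours 1, 3, 4 and 5, and 11.58, 11.21, 10.76, 11.03 and 11.27 in Hif1a+/+ tumours 1 to 5. In 4 of 5 Hif1a+/- tumours the level was above every Hif1a+/+ tumour, and the exception was tumour 4. The difference was 0.62 (SE 0.21, 95% interval 0.17 to 1.07), 1.54-fold, and did not pass (limma adjusted p = 0.514).

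The other Jmjd6 probe sets differed the same way in a fit of all 18264 probe sets. The second was higher by 0.76 (SE 0.19, limma adjusted p = 0.457) and the third by 0.83 (SE 0.33, limma adjusted p = 0.627). The first and second probe sets were designed from the same source sequence, so they are not separate evidence. In Hif1aKI/+ against Hif1a+/+ the difference at the probe set of highest mean was 0.23 (SE 0.22, limma adjusted p = 0.984). Thymic epithelial markers were higher in the same comparison: the mean of 10 ran from 5.22 to 7.25 in Hif1a+/-, from 6.33 to 7.43 in Hif1aKI/+ and from 3.36 to 6.998 in Hif1a+/+ tumours, with Cldn3 and Cldn4 below the boundary in every tumour. Jmjd6 correlated with that mean at r = 0.614 (rho = 0.569, permutation p = 0.0197, adjusted p = 0.364), with r = 0.594 within genotypes and 0.388 without the 2 tumours of most extreme Jmjd6. With the adipocyte mean r was -0.537 (rho = -0.420, permutation p = 0.0484, adjusted p = 0.456), -0.271 within genotypes and -0.412 without those 2 tumours. The part of either cell type in the Jmjd6 levels was not tested. Hspa1b, an inducible heat shock protein gene, was closest to Jmjd6 (r = 0.858), followed by Anapc11 (r = 0.806) and Fxyd5 (r = 0.789).

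Kdm3a encodes a JmjC demethylase of histone H3 lysine 9 and was the steadiest of the 10 genes. It ranged from 10.95 to 11.60 in Hif1a+/-, from 11.25 to 11.84 in Hif1aKI/+ and from 10.63 to 11.46 in Hif1a+/+ tumours, with an SD over 14 tumours of 0.30 that 78.7% of genes above the boundary exceeded. The difference was 0.38 (SE 0.19, 95% interval -0.03 to 0.78, limma adjusted p = 0.984) for Hif1aKI/+ against Hif1a+/+ and 0.15 (SE 0.18, 95% interval -0.23 to 0.53, limma adjusted p = 0.859) for Hif1a+/- against Hif1a+/+. Of the list of JmjC relatives, Kdm3b, Jmjd1c and Kdm4c were measured and 0 of 3 passed in any comparison (0 at an unadjusted limma p under 0.05), and the related Kdm4b is described above with the hypoxia-induced genes.

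Zfp395 encodes a zinc finger protein with a DNA-binding role, and it was highest in Hif1aKI/+ tumours. Its level was 8.49, 7.38, 8.28, 8.38 and 7.98 in Hif1a+/- tumours 1 to 5, 9.44, 8.29, 9.91 and 8.71 in Hif1aKI/+ tumours 1, 3, 4 and 5, and 7.10, 8.59, 8.54, 8.81 and 7.96 in Hif1a+/+ tumours 1 to 5. Hif1aKI/+ tumours 1 and 4 stood 0.62 above all the other 12, while Hif1aKI/+ tumours 3 and 5 lay within the range of the Hif1a+/+ tumours. The difference was 0.89 (SE 0.41, 95% interval 0.001 to 1.77, limma adjusted p = 0.984) for Hif1aKI/+ over Hif1a+/+, 1.85-fold, and -0.99 (SE 0.41, 95% interval -1.87 to -0.10, limma adjusted p = 1.0) for Hif1a+/- against Hif1aKI/+. For Hif1a+/- against Hif1a+/+ it was -0.10 (SE 0.38, limma adjusted p = 0.990).

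**Figure D3:**
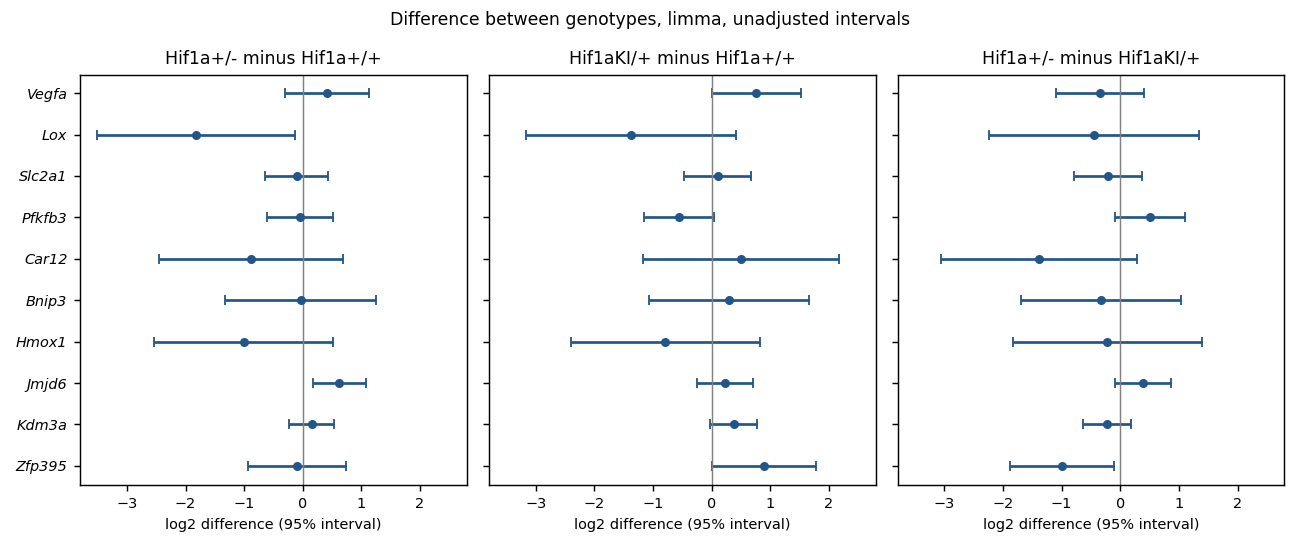
Log2 difference between genotypes (horizontal axis) for each of the 10 genes, from the limma fit over all genes, with unadjusted 95% intervals; a value above 0 means higher in the genotype named first. Intervals are widest for Lox, Car12 and Hmox1, and none of the 30 differences passed after adjustment.

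The 10 genes did not move as a block from tumour to tumour. Of the 45 pairs, 28 had r above 0, and beyond Slc2a1 with Bnip3 none passed by Pearson's r over the 14 tumours. Over the 14 tumours Vegfa with Jmjd6 had r = 0.629 (rho = 0.455, permutation p = 0.0184, adjusted p = 0.270). Vegfa with Slc2a1 had r = 0.564 (adjusted permutation p = 0.270), rho = 0.776 (adjusted p = 0.0389) and r = 0.633 within genotypes (adjusted p = 0.0425). Since Vegfa fell in 2 ranges, its pairs were also read within the 10 tumours of the lower range. The highest there were with Zfp395 (r = 0.637, rho = 0.515, permutation p = 0.0471) and Slc2a1 (r = 0.602, rho = 0.636, permutation p = 0.0622), both with an adjusted p of 0.280 over 9 relations. Car12 had a wider gap, of 2.92, with 1 tumour below it, and its pairs were read over all 14 only. The most negative pair was Pfkfb3 with Kdm3a (r = -0.614, rho = -0.736, permutation p = 0.0191, adjusted p = 0.270), with r = -0.532 without the 2 tumours of most extreme Pfkfb3 and -0.489 within genotypes. Lox and Hmox1 were close to uncorrelated with Slc2a1 (r = 0.150, adjusted p = 0.839, and r = -0.0049, adjusted p = 0.990). Pfkfb3 and Jmjd6 had r = 0.492 over the 14 tumours (permutation p = 0.0755, adjusted p = 0.309) and 0.756 for deviations from genotype means (permutation p = 0.00142, adjusted p = 0.0320).

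**Figure D4:**
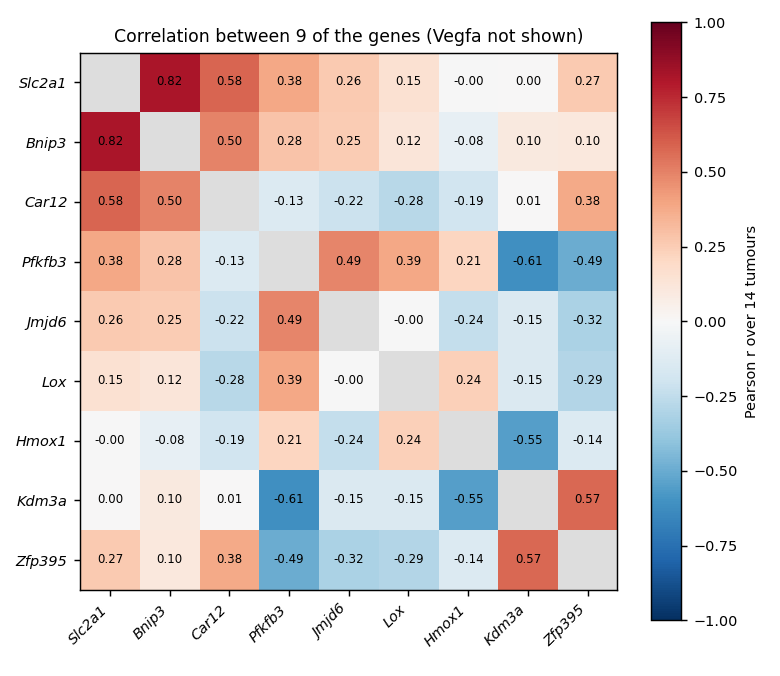
Pearson r over 14 tumours for each pair of 9 of the genes (rows and columns; Vegfa is left out because its values fall in 2 ranges), with colour from -1 in blue to 1 in red. Slc2a1 with Bnip3, at 0.82, is the pair that passed, and Pfkfb3 with Kdm3a, at -0.61, is the lowest.

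The remaining likenesses are given as descriptions over 14 tumours. For Vegfa none is given, since its values fall in 2 ranges. Pfkfb3 was closest to Nsmce3 (r = 0.819), Hsph1 (r = 0.788) and Trim59 (r = 0.785), and Hmox1 to Tcf7l2 (r = 0.864), Abhd15 (r = 0.776) and Dusp3 (r = 0.764). Kdm3a was closest to Zfp869 (r = 0.854), Ddx42 (r = 0.843) and Eif4a2 (r = 0.838), and Zfp395 to Slc12a7 (r = 0.818), Tubgcp5 (r = 0.799) and B4galnt2 (r = 0.752). Of the 9 genes described this way, only Bnip3 had another of the 10, Slc2a1, among its closest 3.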

How the data were processed

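Total RNA (100 ng per array, per the labels' protocols) was amplified, labelled with biotin and measured on 1 Affymetrix array per tumour. The authors deposited log2 probe set values, and the submitters' processing notes name GCRMA and Partek without versions. For the genome build, none is named in the labels used here. GCRMA corrects background by probe sequence, so low values gather in a narrow low mode and differences there are uncertain. Of 18264 probe sets, 16602 named 1 gene, 603 several and 1059 none. For each of 10254 genes the probe set of highest mean was used, without a filter on level. Genotype means were fitted in limma 3.58.1 (R 4.3.3, lmFit and eBayes), with two-sided tests, Benjamini-Hochberg adjustment over all genes and a threshold of 0.05. Precision is limited by how many arrays there are. The boundary of the low mode is the lowest point of the density of all values between its modes. Correlations used two-sided permutation tests with 100000 resamples, adjusted over 45 pairs or over 150 relations of the 10 genes with the 15 lists of at least 3 measured genes. Within genotypes, resampling was kept within each genotype. For pairs with Vegfa the 10 tumours of its lower range were also used, a choice made after its values were seen. For likeness, genes with a mean above the boundary and an SD of at least 0.3 were ranked by r, and the closest 3 are named. Of each gene list, at most the 4 genes of smallest unadjusted p are named with values. Promoter sequences are RefSeq's (GRCm38.p6), and 7 of the 10 genes have a window that was searched. The others are Lox, which was left out of the search, and Hmox1 and Zfp395, which had no window. The 10 genes and the lists were chosen with earlier results of these data known. The labels call the tumours biological replicates. The fit and the permutation test were tested on simulated data. Over all genes, tumours of the same number in different genotypes did not deviate together (mean correlation of residuals -0.0060, range -0.11 to 0.14 over 13 pairs), so no block was used. A correlation over all genes cannot show whether single genes recur by number, and such recurrences are given under Other observations. The labels give no batch, and none could be tested. Alternatives were a filter on level, quantile normalization, median centring, trended robust moderation, array weights, fits without the group not compared, averaged probe sets per gene, all probe sets singly, a replicate block, a threshold of 0.1 and leaving out each tumour.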

Additional observations from a re-analysis of the deposited data

Results flagged for a closer look

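In 48 groups (16 probe sets in 3 genotypes), 5 single tumours stood apart from their group by Dixon's criterion, which chance alone meets in about 1 in 20 groups. Car12 was 3.24 in Hif1a+/- tumour 5, against 6.37 to 7.49 in the other Hif1a+/- tumours. The second Lox probe set was 4.21 in the same tumour, against 2.06 to 2.68 in the others, all of them below the background boundary. Slc2a1 was 13.01 in Hif1a+/+ tumour 2, against 12.00 to 12.27 in the other Hif1a+/+ tumours. The second Vegfa probe set was 2.27 in Hif1aKI/+ tumour 1, against 2.13 to 2.14 in the others, and 2.12 in Hif1a+/+ tumour 1, against 2.14 to 2.15. That probe set was below the boundary in all 14 tumours.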

How the results depend on the processing

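None of the 10 genes passed in any comparison under any alternative run, the F test, all probe sets fitted singly and a threshold of 0.1 included. The sign of the 30 differences was kept in 237 of 240 values from settings other than leaving out a tumour. The 3 exceptions came with array weights for Hif1a+/- against Hif1a+/+, where Slc2a1 was at 0.049, Pfkfb3 at 0.17 and Bnip3 at 0.10, and the cause was not tested. Without 1 tumour at a time, 400 of 420 signs were kept. For Hif1a+/- against Hif1a+/+ the reversals lay in Slc2a1 (-0.20 to 0.069), Pfkfb3 (-0.20 to 0.12), Bnip3 (-0.34 to 0.29) and Zfp395 (-0.37 to 0.082). For Hif1aKI/+ against Hif1a+/+ they lay in Bnip3 (-0.12 to 0.70), and for Hif1a+/- against Hif1aKI/+ in Lox (-1.01 to 0.052), Bnip3 (-0.73 to 0.084) and Hmox1 (-0.56 to 0.16). Over all genes, the 2 calls for Hif1a+/- against Hif1a+/+ became 0 with the filter on level, quantile normalization, median centring, the fit of the compared groups only or the replicate block, 1 with trended robust moderation and 0 to 1 without 1 tumour. The counts without 1 tumour were 0 to 2 for Hif1aKI/+ against Hif1a+/+ and 0 to 1 for Hif1a+/- against Hif1aKI/+. The replicate block changed no call among the 10 genes. The 1 correlated pair became 3 with deviations from genotype means, 2 with Spearman's rho and 0 to 1 without 1 tumour, and the 0 relations with list means became 0 to 2 without 1 tumour. The added pairs were Pfkfb3 with Jmjd6 within genotypes and Vegfa with Slc2a1 in both settings, a relation that spans the 2 ranges of Vegfa. Wide spread within groups limits Lox, Car12, Hmox1 and Bnip3 most.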

Other observations

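The numbers of the labels recur in 2 of the genes, although they are not known to mark anything shared. Tumours 1 and 3 of both altered genotypes made up the upper Vegfa range of 7.12 to 7.39, while Hif1a+/+ tumours 1 and 3 were at 5.86 and 5.79. The 3 tumours numbered 5 had the lowest Bnip3 levels of all 14, at 9.36 in Hif1a+/-, 9.70 in Hif1aKI/+ and 9.39 in Hif1a+/+. The mean of 17 glycolysis genes was likewise lowest of its group in each tumour numbered 5, at 10.22 in Hif1a+/-, 10.76 in Hif1aKI/+ and 10.34 in Hif1a+/+. Slc2a1, which varied with Bnip3, ranked 14, 13 and 11 from the highest of 14 in Hif1a+/-, Hif1aKI/+ and Hif1a+/+ tumour 5. These recurrences were noticed in the data and not tested.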
